A study of Mus musculus with 31 samples.

Results

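Retinal gene expression was compared between 2 groups of non-diabetic C57BL/6J mice of the same series. All 8 arrays labelled as untreated controls and all 8 arrays labelled wild type were taken, 16 of 31 arrays, and no array was dropped. Per the labels, the wild-type mice had the genotype Ins2/Ins2 and the untreated mice the treatment "control". Their counterparts were 9 arrays of Ins2Akita/Ins2 mice, whose mutant insulin misfolds and damages the pancreatic beta cells that make it, and 6 arrays of mice given streptozotocin (STZ), which kills those cells. The diabetic mice had been hyperglycaemic for 3 months. The labels give neither genotype for the untreated mice, nor a vehicle, nor age, litter or colony for any group, and nothing says that the arrays came from separate animals. P-values therefore measure only the spread between these arrays, which may be technical.

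The comparison asks how far 2 groups of control retinas in one study differed from each other. Each control group filled a separate BeadChip, and so BeadChip and group cannot be told apart in this comparison. The Ins2Akita arrays lay on another BeadChip and the STZ arrays on yet another, except that Ins2Akita replicate 9 lay with the STZ arrays.

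The retina turns light into nerve signals. Rods and cones absorb light, bipolar cells carry the signal inwards, horizontal and amacrine cells shape it, ganglion cells send it to the brain, and Muller glia supply and clear the tissue. Whole-retina RNA mixes all of these cells, with rods the most numerous, so fewer cells of a type and less RNA per cell cannot be told apart here.

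Levels are log2 intensities after background correction and quantile normalization, for 16743 probes detected on at least 6 arrays. Each of 11172 genes was read on its brightest probe. The rod transducin gene Gnat1 stood at 14.15 to 14.50 over the 16 arrays, and Nnt, which C57BL/6J mice lack in functional form, was detected on 0 of 31 arrays by its 3 probes. Detected probes numbered 14581 to 15469 on wild-type and 15226 to 15650 on untreated arrays, and the means differed by 227 (exact permutation test, two-sided, p = 0.0668, 8 against 8 arrays). The mean level of 20 lens genes, centred over the 31 arrays, ran from -2.98 to 2.93 on wild-type and from -2.98 to 4.39 on untreated arrays. None of these 20 genes was called (lowest adjusted p = 0.469 in limma). A muscle score was high on wild-type replicate 7 alone (1.49, against at most 0.11 on the other 15 arrays).

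The untreated retina differed from the wild-type retina at 3723 of 16743 probes (22.2%) at an adjusted p under 0.05 in limma, fitted over all 31 arrays with Benjamini-Hochberg adjustment. Of these, 1902 (11.4%) were higher and 1821 (10.9%) lower in untreated. Scaling each array to its median in place of quantile normalization gave 1166 higher and 2524 lower, so the balance of directions depends on the scaling. Most differences were small. The median called probe differed 1.27-fold, 470 probes exceeded 1.5-fold, and 31 rose and 45 fell by more than 2-fold. At 532 probes (3.18%) the 8 untreated and 8 wild-type arrays did not overlap, 311 with untreated above (1.86%) and 221 with untreated below (1.32%). By gene, 1366 of 11172 (12.2%) were higher and 1056 (9.45%) lower, and counts of list members are read against these shares (7.14% and 13.8% with median scaling).

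Calls were more frequent among bright probes, from 15.2% of the 3349 dimmest probes to 27.1% of the 3349 brightest. Genes called higher spanned a median of 33.5 kb in the annotation, against 18.7 kb for genes called lower and 21.2 kb for genes not called. Without wild-type replicates 5 and 6, which had the fewest detected probes, 3446 probes were called. Without the 6 arrays of the series with a lens score above 2, which again include wild-type replicate 6, the number was 3021.

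The STZ and Ins2Akita arrays share no array with these controls and allow the same genes to be read a second time. Both comparisons came from the same normalization and fit, with 1 shared estimate of the spread per probe. Calls made in both are therefore not independent. STZ minus Ins2Akita adds the difference of the diabetic models to whatever separated the groups before. It called 3189 probes (19.0%), 1467 higher (8.76%) and 1722 lower (10.3%), and by gene 9.33% were higher and 8.06% lower. Of the 3723 probes called between the controls, 3483 (93.6%) had the same sign in STZ minus Ins2Akita, against 74.2% of all probes, and 1781 were called in the same direction, 47.8% of the first set and 55.8% of the second. Only 4 were called in opposite directions. Of the 470 probes over 1.5-fold, 466 kept the sign and 406 (86.4%) were called the same way. Over all probes the differences correlated at r = 0.69, a description across probes that were normalized together.

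The size of the difference between the pairs of groups was tested as well. In limma 3 probes (0.0179%) differed between untreated minus wild type and STZ minus Ins2Akita, 2 higher (0.0119%) and 1 lower (0.00597%), and 1449 did so at an unadjusted p under 0.05. By gene these were 3 of 11172 (0.0269%), 2 higher (0.0179%) and 1 lower (0.00895%), namely Rpl23, Map1b and the gene model Gm5347. Rpl23, a ribosomal protein gene, gave 0.65 between the controls and -0.04 between the diabetic groups (difference 0.70, SE 0.09, adjusted p = 0.00044). Its means were 13.63 in wild type, 14.28 in untreated, 14.24 in STZ and 14.29 in Ins2Akita. The last 3 lie near the highest value of the scale, 14.5, which limits how large a difference can be read. Map1b, a microtubule-associated protein gene of axons, gave 0.37 and -0.32 (difference 0.68, SE 0.12, adjusted p = 0.0151), and its sign between the controls turned to -0.19 when its probes were averaged.

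**Figure D1:**
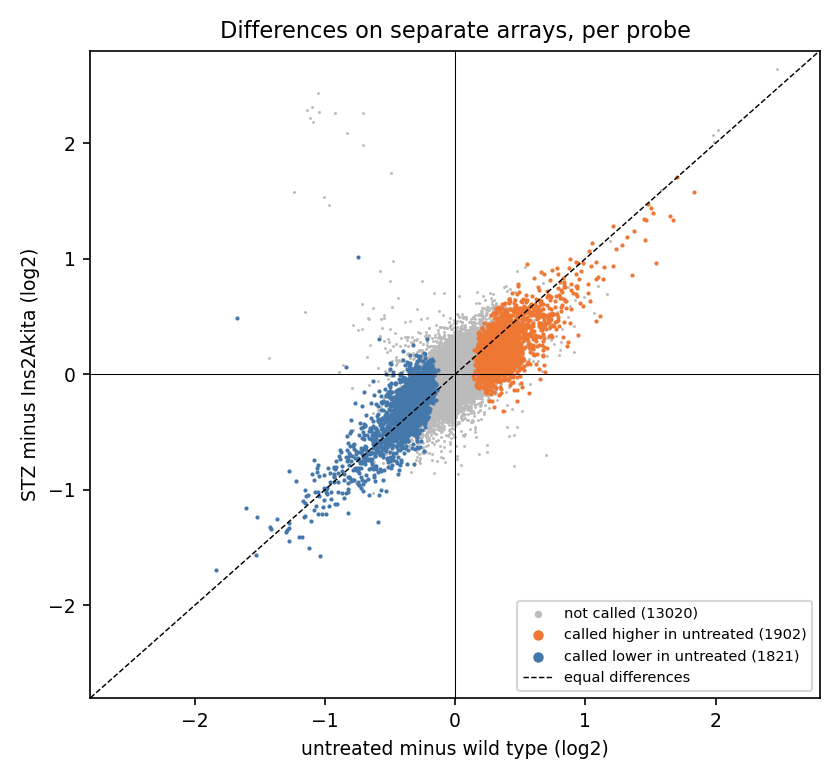
Each point is a probe kept for the test, with the log2 difference untreated minus wild type on the x axis and STZ minus Ins2Akita on the y axis. Orange and blue mark the 1902 and 1821 probes called between the non-diabetic groups, while the grey points at upper left include lens genes. The dashed line marks equal differences. Of the called probes 93.6% had the same sign on both axes. The medians on the x and y axes were 0.35 and 0.23 for probes called higher, and -0.35 and -0.28 for those called lower.

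Ins2Akita replicate 9 shared its BeadChip with the STZ arrays, so 1 comparison across these groups can be made within a BeadChip. Against this array the STZ mean had the sign of untreated minus wild type at 80.6% of the 3723 probes and 94.9% of the 470 over 1.5-fold, against 62.8% of all probes. The replicate lay nearer to Ins2Akita replicates 1 to 8 than to the STZ mean at 65.0% of the called probes and at 89.6% of those over 1.5-fold, against 52.4% of all probes. Fitted as a group of its own, with the array assumed to vary like the other groups, it gave 132 calls against STZ. Of these, 117 were also called between the controls in the same direction and 0 in the opposite one, where 22.2% of all probes were called between the controls in either direction.

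The replicate did not side with its own genotype everywhere. Among the 470 probes, its level fell inside the range of the other Ins2Akita arrays and outside that of STZ at 262 (55.7%), and inside the STZ range only at 33 (7.02%). Over all probes these shares were 21.3% and 16.5%. Of these 33, 30 were probes higher in untreated. Pax6, the master regulator of eye development that amacrine and ganglion cells keep expressing, was one of the 33. It stood at 7.24 on replicate 9, at 5.97 to 6.70 on replicates 1 to 8, and at 6.63 to 7.49 on the STZ arrays. Eef1a1, which encodes the elongation factor that brings transfer RNA to the ribosome, stood at 8.11 against 6.48 to 7.47 and 7.31 to 8.42. For both genes replicate 9 lay above every other Ins2Akita array.

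Ifngr2, which encodes a chain of the interferon-gamma receptor, had the largest rise and ranged from 9.98 to 10.56 (median 10.26) on wild-type and from 11.96 to 12.30 (median 12.06) on untreated arrays. The groups stood apart by more than 1 log2 unit at their nearest points. The rise was 3.57-fold (log2 difference 1.84, SE 0.10, adjusted p = 8.92e-14 in limma), and STZ minus Ins2Akita gave 1.57 (adjusted p = 1.82e-11).

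Prf1, which encodes the pore-forming perforin of cytotoxic lymphocytes, was a bright probe in this tissue. It stood at 11.17 to 11.69 (median 11.46) on wild-type and at 12.70 to 13.12 (median 12.92) on untreated arrays, with no overlap (2.76-fold, log2 difference 1.47, SE 0.09, adjusted p = 6.19e-13 in limma). Siglech, which encodes a lectin of microglia and plasmacytoid dendritic cells, was at 8.33 to 8.81 (median 8.66) and 9.90 to 10.31 (median 10.20), again without overlap. Its rise was 2.86-fold (log2 difference 1.52, adjusted p = 4.06e-13). Of 10 microglial genes measured, Ctss alone was called (log2 difference 0.36, adjusted p = 0.0264), and Ctss lost its call in 4 of the fits that left out 1 array.

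The other large rises were of Hykk, a hydroxylysine kinase gene (3.25-fold), Terf2ip, a telomere-binding protein gene (3.18-fold), Spc24 of the kinetochore (2.83-fold), Atpaf2, an assembly factor of the mitochondrial ATP synthase (2.73-fold), and Erich5 (2.59-fold), Leng8 (2.57-fold) and Zxda (log2 difference 1.32). On the probes of all 10 genes the STZ arrays also lay above the Ins2Akita arrays without overlap. Leng8 spread widely, from 4.93 to 7.56 in wild type against 7.59 to 8.57 in untreated. Its lowest array was wild-type replicate 5, the only wild-type array on which it was not detected.

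For each of the largest rises named above the call rested on 1 probe. Hykk, Prf1, Erich5, Leng8 and Zxda had no other kept probe. The other kept probes of Ifngr2 gave -0.10 and -0.20, those of Terf2ip 0.05, 0.04 and 0.02, that of Siglech 0.03, that of Spc24 0.10 and that of Atpaf2 -0.19, none called (lowest adjusted p = 0.104 in limma). For all genes whose called brightest probe had company, 1142 other probes were kept for 771 genes. Of these, 65.4% had the same sign, 25.3% were called the same way and 8.41% the opposite way. Where the brightest probe was not called, 58.6% of the other probes had its sign. What these probes hybridise to was not tested, since probe sequences were not used here. Named genes are therefore to be read as their probe.

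**Figure D2:**
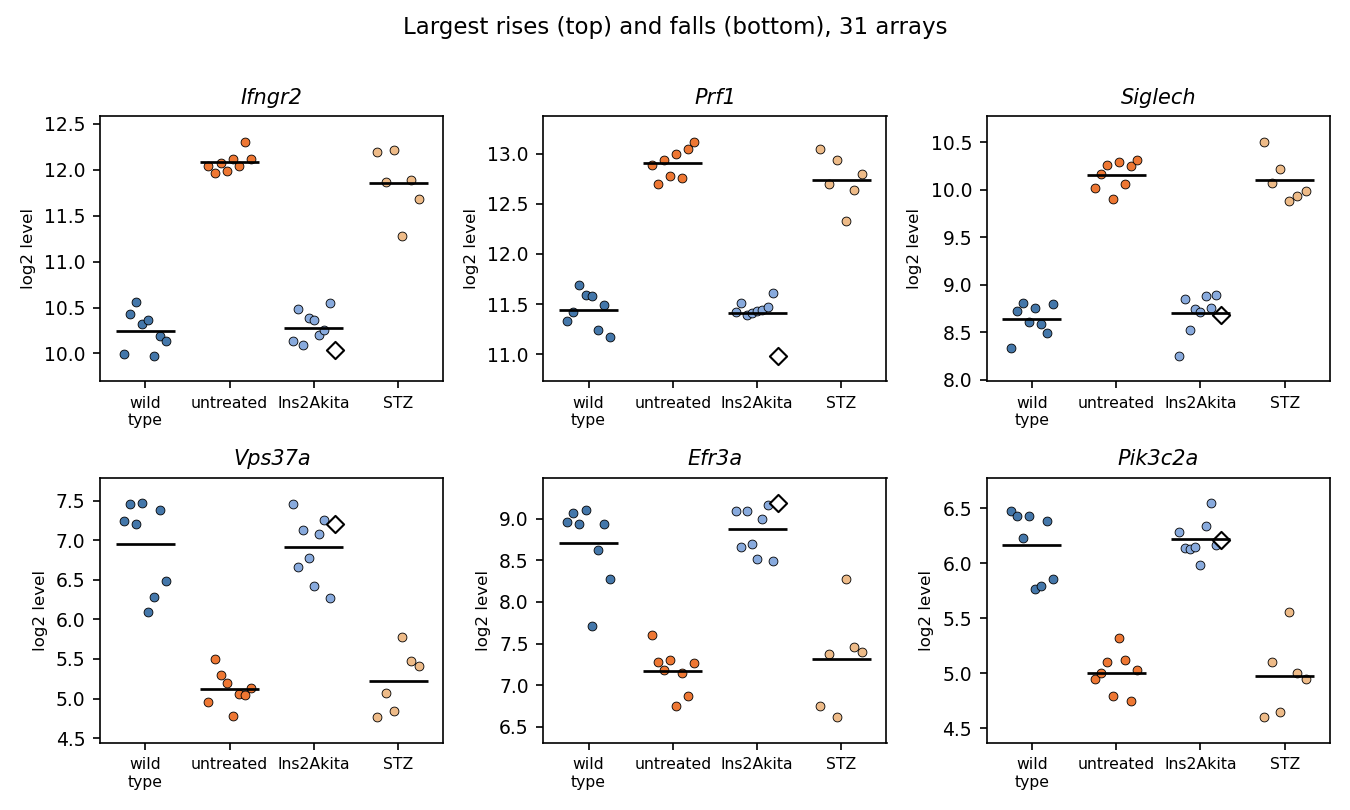
Log2 level of 3 of the largest rises (top) and 3 of the largest falls (bottom) on each of 31 arrays, with horizontal bars for group means and an open diamond for Ins2Akita replicate 9. In each panel the untreated and wild-type arrays do not overlap. The diamond lies nearer to the other Ins2Akita arrays than to the STZ arrays in each panel, but for Prf1 it lies below them all, at 10.98.

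Among the largest falls was Vps37a, a subunit of the ESCRT-I complex that sorts membrane proteins for degradation. It stood at 6.09 to 7.47 (median 7.22) on wild-type and at 4.77 to 5.50 (median 5.09) on untreated arrays, without overlap. The fall was 3.56-fold (log2 difference -1.83, SE 0.20, adjusted p = 6.32e-08 in limma), and STZ minus Ins2Akita gave -1.69 (adjusted p = 1.04e-06). Efr3a, which anchors a lipid kinase at the plasma membrane, was at 7.72 to 9.11 (median 8.94) and 6.74 to 7.60 (median 7.23), and fell by 1.53 (adjusted p = 1.36e-06). Pik3c2a, a phosphoinositide kinase gene, fell by 1.16 (adjusted p = 4.21e-08), again with separate groups. Vps37a was detected on 6 and Pik3c2a on 5 of the 8 untreated arrays, and both on all 8 wild-type arrays.

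Edil3, which encodes a matrix protein that binds integrins, passed detection on 7 wild-type arrays of 8 and on 0 untreated arrays of 8. Its level was 4.83 to 7.16 in wild type and 4.36 to 4.88 in untreated, so the groups overlapped only at 1 end. It was at least 2.35-fold lower in untreated (adjusted p = 1.28e-05 in limma), with the dimmest probe well detected on each untreated array standing in for its level. The integrin gene Itgav fell by 1.42 (adjusted p = 7.54e-05) and was separate in the 2 groups.

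Xiap, an inhibitor of caspases, fell on every probe kept for it. It ranged from 5.79 to 8.26 in wild type and from 5.75 to 6.68 in untreated, with 2.29-fold lower levels in untreated (adjusted p = 0.00175). Its other 2 probes gave -0.87 and -1.37 (adjusted p = 1.04e-06 and 2.57e-05). The death receptor gene Tnfrsf10b fell by 1.28 (adjusted p = 5.89e-06), but its other probe, near background, gave 0.38 (adjusted p = 0.0022). Atrx, a chromatin remodeller, gave -1.28 and Glcci1 -1.15 (adjusted p = 0.00357 and 0.00355), and both calls were lost when all kept probes of the gene were averaged. The 3 other probes of Glcci1 gave 0.25, 0.49 and -0.69, the last 2 called. Atrx passed detection on 6 wild-type and 2 untreated arrays, of 8 each, and its untreated level lies near background.

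Egr1, an immediate early transcription factor gene switched on within minutes by activity or handling, was the one gene among the 10 largest falls for which STZ lay above Ins2Akita. It stood at 10.56 to 14.00 (median 12.21) on wild-type and at 9.44 to 11.59 (median 10.80) on untreated arrays. The wild-type arrays divided into 4 at 12.99 or above and 4 that lay inside the untreated range. The log2 difference was -1.68 (SE 0.46, adjusted p = 0.00921 in limma), and STZ minus Ins2Akita gave 0.48 (adjusted p = 0.532). Of 22 immediate early genes measured, 2 rose (9.09%) and 3 fell (13.6%), with Junb falling by 0.44 (adjusted p = 0.0149) and Btg2 rising by 0.40 (adjusted p = 0.014). Fos gave -0.59 (adjusted p = 0.192).

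Of 72 measured genes of oxidative phosphorylation, which make up the mitochondrial respiratory chain and ATP synthase, 22 fell (30.6%, against 9.45% of all genes) and 2 rose, 48 were not called, and the median difference was -0.12 on the log2 scale, against 0.01 over all genes. Atp5pb, a stator subunit of ATP synthase, was at 10.70 to 11.07 (median 10.87) on wild-type and at 9.97 to 10.51 (median 10.36) on untreated arrays, without overlap, and fell by 0.58 (SE 0.08, adjusted p = 3.67e-06 in limma). Uqcrc2 of complex III fell by 0.37 (adjusted p = 3.61e-05) and Cox7c of complex IV by 0.42 (adjusted p = 0.000126), also without overlap. Ndufa6 of complex I fell by 0.50 (adjusted p = 1.69e-05), with untreated replicate 1 at 11.52 inside the wild-type range. Under the 4 scalings tried 22 to 29 were lower and 1 or 2 higher. The list's mean level, centred over the 31 arrays, was highest on wild-type replicates 6 and 5 (0.317 and 0.166, against -0.0336 to 0.104 on the other wild-type arrays), which had the fewest detected probes. Without these 2 arrays the difference of the group means went from -0.106 to -0.0522, and 12 genes were lower and 2 higher (8.17% of all genes lower). Without the arrays with a high lens score, which also include wild-type replicate 6, 13 were lower and 5 higher. STZ minus Ins2Akita gave 14 lower and 2 higher, and 8 genes were lower in both.

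Of 72 mitochondrial ribosomal protein genes 17 were lower (23.6%) and 3 higher (median -0.12). Without wild-type replicates 5 and 6, 8 were lower and 3 higher, and without the arrays with a high lens score 6 and 3. Mrps22 stood at 8.91 to 9.12 in wild type and 8.49 to 8.87 in untreated, without overlap, and fell by 0.37 (adjusted p = 0.000301 in limma). Mrpl18 fell by 0.39 (adjusted p = 7.67e-05), a call lost when its probes were averaged, and its other probe gave 0.35 (adjusted p = 0.0947). In all, 8 of these genes were lower in both comparisons.

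Cytosolic ribosomal protein genes had 19 of 56 lower (33.9%) and 1 higher, with a median of -0.14. Their mean level was again highest on wild-type replicate 6 (0.325), with 0.169 on replicate 5 and -0.0247 to 0.192 on the others. Without these 2 arrays 11 were lower and 2 higher, and the difference of the group means went from -0.14 to -0.0944. What part these arrays' quality has in the lists of respiration and ribosomes was not tested. In STZ minus Ins2Akita 10 were lower and 1 higher, and 6 were lower in both. Many of these genes have processed copies elsewhere in the genome, so their probes are uncertain. Rps15 of the small subunit stood at 11.18 to 11.78 (median 11.44) in wild type and 10.71 to 11.13 (median 11.07) in untreated, without overlap, and fell by 0.42 (adjusted p = 0.000111 in limma). Rpl31 fell by 0.35 (adjusted p = 0.000399), but its other probe gave 0.0019 (adjusted p = 0.989). Rpl35 fell by 0.33 (adjusted p = 0.000703). The exception was Rpl23, at 13.44 to 13.93 in wild type and 14.18 to 14.33 in untreated, whose other 3 probes gave -0.18, 0.16 and -0.08 and were not called, and whose call was lost in the mean of its probes. Messenger RNAs of ribosomal proteins are known for a run of pyrimidines at their 5′ end, through which the mTOR pathway controls their translation. The start regions of 5 genes called lower and of Rpl23 are shown as listed in RefSeq (GRCm38.p6). These 5 are a selection and not simply the largest falls. The lowest log2 difference among the 56 cytosolic ribosomal protein genes was -0.50, in a gene not shown. Each region runs from 40 bases before to 20 bases from the annotated start. Capitals mark the unbroken run of C and T that holds the first transcribed base.
Rps15 (chr10:80292391-80292450, + strand): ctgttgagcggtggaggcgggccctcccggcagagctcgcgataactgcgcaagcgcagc
Rps13 (chr7:116334171-116334230, - strand): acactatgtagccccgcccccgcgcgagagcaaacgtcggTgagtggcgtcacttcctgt
Rpl31 (chr1:39367811-39367870, + strand): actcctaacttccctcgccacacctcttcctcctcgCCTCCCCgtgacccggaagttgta
Rpl35 (chr2:39005112-39005171, - strand): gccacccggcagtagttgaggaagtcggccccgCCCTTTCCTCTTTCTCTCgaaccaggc
Fau (chr19:6057907-6057966, + strand): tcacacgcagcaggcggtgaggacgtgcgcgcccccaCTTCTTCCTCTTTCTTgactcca
Rpl23 (chr11:97782420-97782479, - strand): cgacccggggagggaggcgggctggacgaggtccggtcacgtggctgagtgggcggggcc
A run of at least 5 was present at 16 of 48 ribosomal starts found there (33.3%), against 9.95% of 27025 starts of all genes. It was present at 5 of 17 that were called lower and at 11 of 30 that were not called. Only 1 annotated start per gene was read. A run that does not cover that base was not counted, so these counts do not show which genes lack a run.

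Of 31 proteasome genes 4 were lower and 2 higher, but 9 lower and 0 higher with median scaling. Psmb7, a catalytic subunit, fell by 0.53 without overlap (adjusted p = 3.04e-06). Its other 2 probes gave -0.09 and 0.05. Among 29 translation factors 3 fell and 2 rose (5 and 1 with median scaling), and Eif4a1, the helicase that opens messenger RNA for scanning, fell by 0.30 on a probe with separate groups and by 0.31 on its other probe (adjusted p = 3.76e-05 and 0.000382). Of 40 splicing genes 7 fell and 3 rose (10 and 2 with median scaling). Srsf2, a splicing factor, rose 1.66-fold (adjusted p = 4.39e-10), while its other probes gave 0.45 and -0.46, both called.

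**Figure D3:**
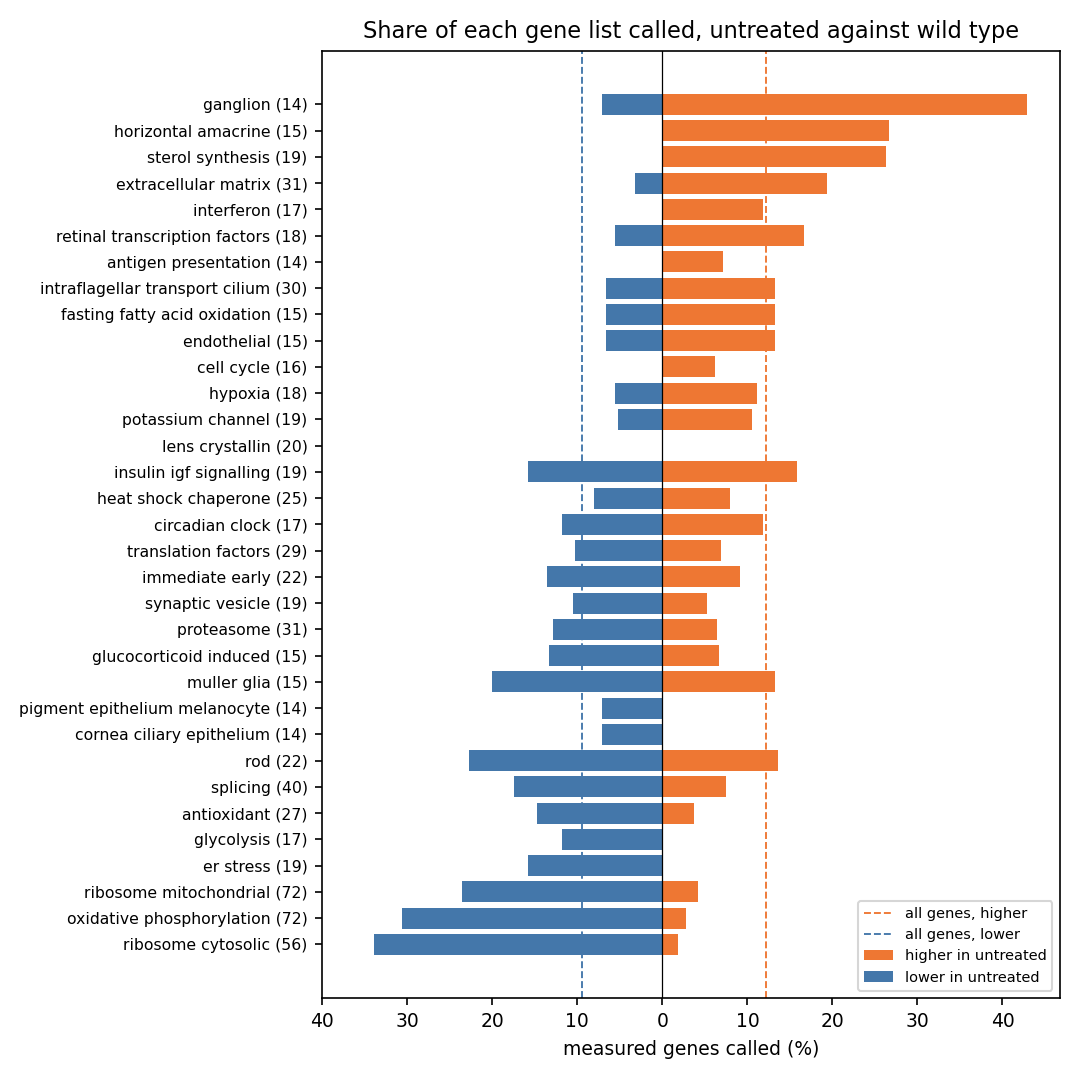
Share of the measured genes of each list called higher (orange, to the right) or lower (blue, to the left) in untreated than in wild type, for lists with at least 14 genes measured, whose number is in brackets. Dashed lines mark the shares over all genes, 12.2% higher and 9.45% lower, and the lists of respiration and of both kinds of ribosome exceed the lower share, while the ganglion, amacrine and sterol lists are among those that exceed the higher one.

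Bipolar, ganglion and amacrine genes were next. Trpm1, the channel that opens when ON bipolar cells depolarise, stood at 10.60 to 11.16 (median 11.01) in wild type and 11.38 to 11.60 (median 11.53) in untreated. Grm6, the glutamate receptor upstream of that channel, was at 11.12 to 11.67 (median 11.59) and 11.78 to 12.09 (median 12.02). Neither gene overlapped between the groups. The log2 differences were 0.52 for Trpm1 and 0.48 for Grm6 (SE 0.06 and 0.08; adjusted p = 5.04e-07 and 8.27e-05 in limma), and STZ minus Ins2Akita gave 0.34 and 0.31 (adjusted p = 0.00058 and 0.012). The other probe of Trpm1 gave 0.10 (adjusted p = 0.491). Of 11 bipolar genes 4 rose and 1 fell, Isl1 by 0.29 (adjusted p = 0.00079), yet the list's median was -0.11, and with median scaling 2 rose and 2 fell.

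Of 14 ganglion cell genes 6 rose (42.9%, against 12.2% of all genes) and 1 fell, with a median of 0.11. The transcription factor genes Isl2 and Pou4f1 rose by 0.44 and 0.37 (adjusted p = 0.00156 and 0.00706 in limma), each with overlapping groups, and Slc17a6, the vesicular glutamate transporter gene, rose by 0.25 (adjusted p = 0.0114). Thy1, the classical surface marker of ganglion cells, went the other way, at 11.50 to 11.81 in wild type and 11.20 to 11.69 in untreated, a fall of 0.28 (adjusted p = 0.0115). With median scaling 3 rose and 2 fell, and 4 rose and 1 fell without wild-type replicates 5 and 6. Under median scaling the calls of Pou4f1 and Slc17a6 were lost. In STZ minus Ins2Akita 0 rose and 2 fell, and none was called in the same direction in both.

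Among 15 horizontal and amacrine genes 4 rose and 0 fell (median 0.13). Pax6, described above, stood at 6.06 to 6.68 (median 6.36) in wild type and 6.68 to 7.41 (median 7.11) in untreated, and rose 1.64-fold (adjusted p = 0.000392 in limma), with the lowest untreated array just above the highest wild-type one. Septin4 rose by 0.36 (adjusted p = 0.00668) but passed detection on only 3 wild-type arrays of 8.

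Of 22 rod genes 3 rose and 5 fell, with a median of 0.04, but with median scaling 1 rose and 7 fell, with a median of -0.06. Gnat1 reached 14.15 to 14.31 in wild type and 14.41 to 14.50 in untreated, but it held the highest value of the scale on 6 of 8 untreated arrays and 6 of 6 STZ arrays, so no size of difference can be read from this probe. Its other probe gave 0.11 (adjusted p = 0.178 in limma). Grk1, the kinase that quenches activated rhodopsin, stood at 8.54 to 9.34 (median 9.11) in wild type and 8.37 to 8.86 (median 8.59) in untreated, and fell by 0.48 (adjusted p = 0.000854). STZ minus Ins2Akita gave -0.72 (adjusted p = 1.65e-05). Gnb5, part of the complex that shuts transducin off, fell by 0.38 (adjusted p = 0.000178) on its brightest probe without overlap, but the mean of its 3 probes gave 0.03. Of 11 cone genes 2 fell and 0 rose (4 and 0 with median scaling), with a median of -0.21. Pde6c, the cone phosphodiesterase gene, stood at 10.05 to 10.76 in wild type and 9.73 to 10.03 in untreated, and fell by 0.36 and on its other probe by 0.27 (adjusted p = 0.00373 and 0.0162).

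**Figure D4:**
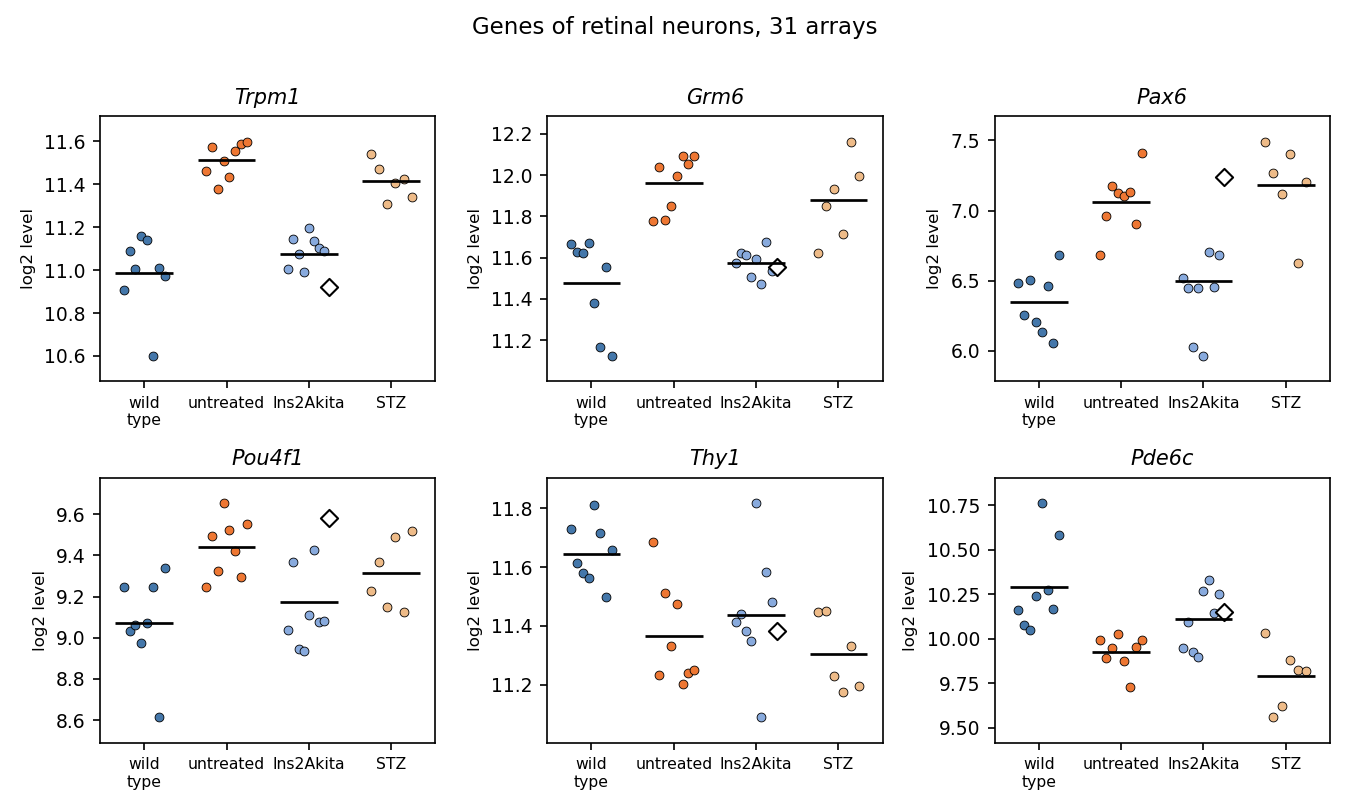
Log2 level of 6 genes of retinal neurons on each of 31 arrays, with horizontal bars for group means and an open diamond for Ins2Akita replicate 9. The untreated arrays lie above the wild-type arrays for Trpm1, Grm6 and Pax6 and below them for Pde6c, and for Pax6 and Pou4f1 the diamond lies above the other Ins2Akita arrays.

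Muller glial genes had 2 higher and 3 lower of 15, and 0 higher and 7 lower with median scaling. Hes1, a Notch target that keeps glia from turning into neurons, was at 8.01 to 8.51 in wild type and 7.09 to 8.22 in untreated and fell by 0.53 (adjusted p = 0.000936 in limma), against 0.00 in STZ minus Ins2Akita. Of 15 endothelial genes 2 rose (0 with median scaling) and 1 fell, Ly6c1 by 0.41 (adjusted p = 0.0014). Of 17 interferon genes 2 rose and 0 fell, while 9 rose in STZ minus Ins2Akita, and with the series matrix values 0 were called between the controls. Complement genes had 0 of 10 called (lowest adjusted p = 0.112).

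Sterol synthesis genes had 5 of 19 higher (26.3%) and 0 lower, with a median of 0.13. Lss, the lanosterol synthase gene, stood at 6.69 to 7.28 (median 7.01) in wild type and 7.33 to 8.03 (median 7.73) in untreated, just without overlap, and rose 1.61-fold (log2 difference 0.69, SE 0.12, adjusted p = 0.000121 in limma). STZ minus Ins2Akita gave 0.02 for it (adjusted p = 0.935). Insig1, the sterol sensor that holds back the pathway's activator, rose by 0.52 (adjusted p = 0.000274), but its dimmer probes gave -0.34 and -0.09, and Idi1, an isomerase of isoprenoid precursors, rose by 0.42 (adjusted p = 0.0187). The call of Insig1 was lost when its probes were averaged and that of Idi1 under median scaling, which left 2 genes of the list higher and 1 lower.

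Several collagen genes rose. Of 31 matrix genes 6 rose (19.4%) and 1 fell. Col5a1, of fibrillar collagen V, was at 5.66 to 7.00 (median 6.76) in wild type and 7.37 to 7.84 (median 7.73) in untreated, without overlap, and rose 2.07-fold (log2 difference 1.05, SE 0.14, adjusted p = 2.95e-06 in limma). Col6a1, of the microfibrillar collagen VI around vessels, was at 7.79 to 8.93 (median 8.42) and 9.07 to 9.36 (median 9.26) and rose by 0.79, and by 0.66 on its other probe (adjusted p = 1.17e-05 and 0.000101). Both genes were also higher in STZ than in Ins2Akita (0.93 and 0.47, adjusted p = 5.13e-05 and 0.00747), and replicate 9 was the lowest Ins2Akita array for Col6a1, at 8.44. P4ha1, a prolyl hydroxylase that matures collagen, rose 1.45-fold without overlap (adjusted p = 4.96e-06). Sparc, a matrix glycoprotein gene, fell by 0.58 (adjusted p = 0.00708), a call lost when its probes were averaged.

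The clock gene Per3 ranged from 6.68 to 8.40 (median 7.79) in wild type and from 8.26 to 8.91 (median 8.54) in untreated, and rose 1.93-fold (log2 difference 0.95, SE 0.17, adjusted p = 0.000124 in limma). Its partner Per2 rose by 0.32 and by 0.27 on its other probe (adjusted p = 0.00345 and 0.0435). Dbp, an output gene of the clock, fell by 0.23 (adjusted p = 0.014). STZ minus Ins2Akita gave 0.82, 0.18 and -0.32 for Per3, Per2 and Dbp (adjusted p = 0.00147, 0.117 and 0.00206). The time of day of tissue collection is not in the labels. Of 17 clock genes 2 rose and 2 fell, near the shares over all genes.

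**Figure D5:**
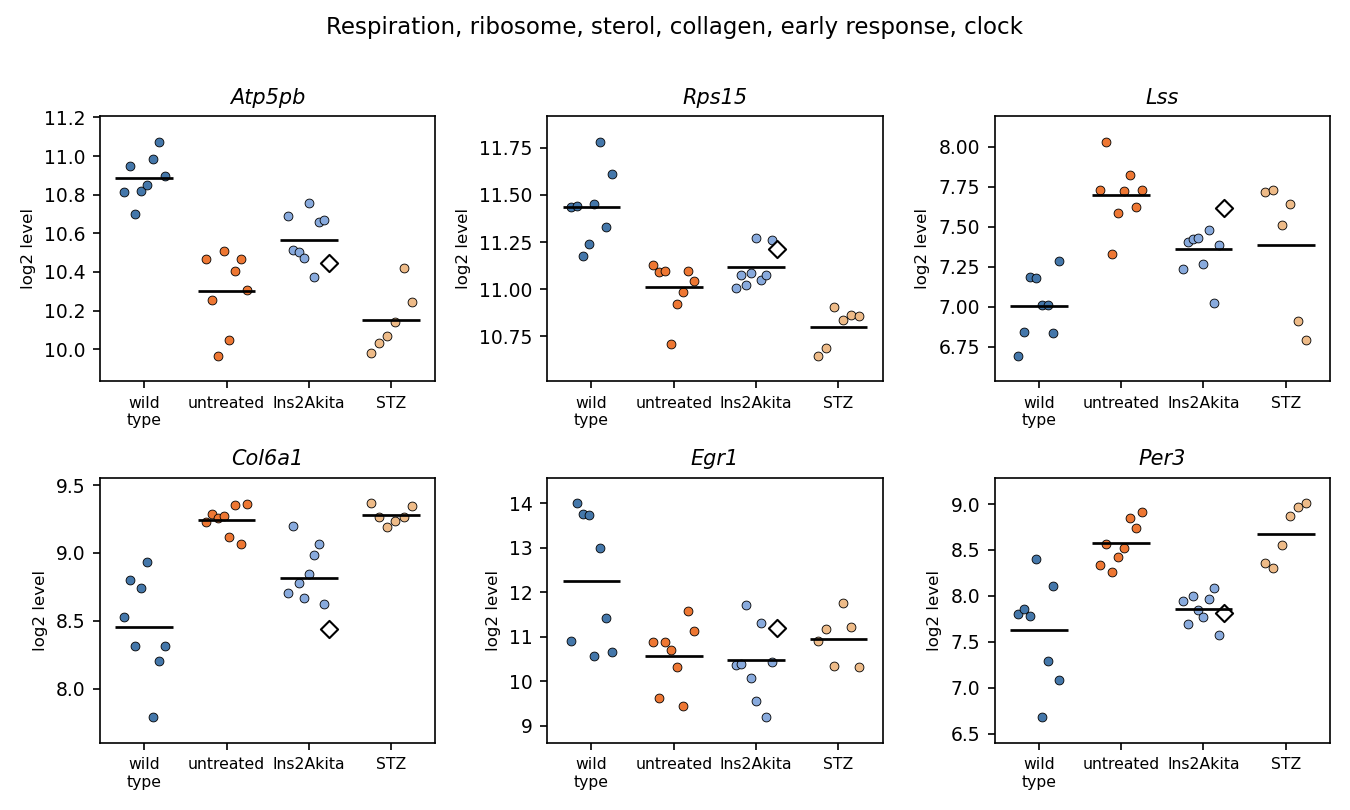
Log2 level of 6 genes on each of 31 arrays, with horizontal bars for group means and an open diamond for Ins2Akita replicate 9. Atp5pb and Rps15 have their highest means in wild type, Lss, Col6a1 and Per3 have higher means in untreated than in wild-type arrays, and the wild-type arrays of Egr1 spread from 10.56 to 14.00.

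Each control group is also the baseline of a diabetic comparison, and these comparisons share arrays with the one above, so their values are set side by side without any further reading. For Ndufa6 the means were 11.74 in wild type, 11.38 in Ins2Akita, 11.23 in untreated and 11.19 in STZ, and Ins2Akita minus wild type was -0.35 (adjusted p = 0.00652 in limma) while STZ minus untreated was -0.05 (adjusted p = 0.932). For Cox7c they were 12.33, 11.98, 11.91 and 11.84, with -0.35 (adjusted p = 0.00612) and -0.07 (adjusted p = 0.874). In both genes the wild-type mean stood above the other 3 groups. For Ifngr2 the means were 10.25, 10.28, 12.08 and 11.85, with 0.03 (adjusted p = 0.904) and -0.23 (adjusted p = 0.586), so that the wild-type and Ins2Akita means were close and the untreated and STZ means were close. Col5a1 stood between these patterns at 6.61, 7.11, 7.65 and 8.04, with 0.50 (adjusted p = 0.0314) and 0.39 (adjusted p = 0.427).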

How the data were processed

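Total RNA of whole retina was hybridised to 31 Illumina BeadChip arrays. The authors deposited probe intensity values, background-subtracted and scaled to the same mean on every array as the values show, with a detection p-value per probe. Per the submitters' processing notes BeadStudio was used, and its version is not given in the sources used here. Scaling before deposit removes differences in total RNA signal. The deposited series matrix intensities, linear and without subtraction, served as an alternative.

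Samples were grouped by their titles. The deposited intensity values were corrected and quantile-normalized with neqc of limma 3.58.1 (R 4.3.3, offset 16, which shrinks differences of dim probes) to log2 values. Probes with a detection p under 0.05 on at least 6 arrays were kept, 16743 of 25697. Probes took their symbols from the array's GEO annotation, brought up to date by Entrez ID for 23962 of them. A model with 4 group means was fitted to all arrays with lmFit and eBayes, and p-values were adjusted over all probes kept. It was tested on simulated data. Arrays have no read depth, so their number limits precision. Members of the 48 gene lists, and the comparison itself, were chosen with earlier results of these data known. Lists are described by counts. Named are the 10 largest rises and falls, the 6 smallest p, up to 4 called members per list and a few fixed genes. Fau and Rps13, outside this rule, entered with the start regions, which were picked by size of fall after the values were seen. Alternatives were normalization, offset, filters, the samples fitted, blocks, covariates and leaving out each array. The exact permutation test was run with scipy 1.17.1 and figures were drawn with matplotlib 3.10.9.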

Additional observations from a re-analysis of the deposited data

Results flagged for a closer look

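Among groups of 8 arrays, 304 sets of values were tested for 1 array that stood apart, by the gap to its nearest neighbour over the whole range of the group against Dixon's critical value, and 15 passed. Chance alone passes about 1 in 20, close to the share that passed here, so the arrays below may stand apart by chance alone. In wild type, replicate 5 was lowest for Leng8 (ratio 0.613, 4.93 against 6.54 for the next array), Grk1 (0.608) and the vascular growth factor receptor Flt1 (0.581), and highest for the liver and plasma list (0.546). Wild-type replicate 6 was lowest for Trpm1 (0.546) and the nuclear receptor gene Rora (0.553). Replicate 2 was lowest for Creld2 (0.543). Replicate 7 was lowest for the potassium channel gene Kcnk3 (0.53) and highest for the muscle list (0.865).

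In untreated, replicate 7 was highest for Ifngr2 (0.532) and for the cornea and ciliary list (0.66). Replicate 3 was highest for Edn2, an endothelin gene (0.579). Replicate 1 was highest for Ndufa6 (0.615), and replicate 2 was lowest for Pmvk of sterol synthesis (0.608) and highest for the lens list (0.531).

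The difference between untreated minus wild type and STZ minus Ins2Akita passed the test in limma for 3 genes. It was 0.68 for Map1b (adjusted p = 0.0151) and 0.70 for Rpl23 (adjusted p = 0.00044). For the gene model Gm5347 it was -0.89 (SE 0.16, adjusted p = 0.024), with -0.58 between the controls and 0.30 between the diabetic groups.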

How the results depend on the processing

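The number of probes called between untreated and wild type, 3723, stayed between 2616 (BeadChip as a random block) and 3889 (replicate block) under the planned settings and the 2 added after seeing the data, and between 3069 and 3844 when 1 array was left out. The random block cannot take BeadChip out of this comparison, since each control group filled 1 BeadChip. Arrays with the same number deviated together in 4 of 8 pairs and matched best in 3 of 8, which neither shows nor excludes pairing by number. On the control arrays the number is also the position on the BeadChip, so there the replicate block is also a block of position. Calls between STZ and Ins2Akita, 3189, were 4793 with the series matrix values (3519 higher and 1274 lower, against 1467 and 1722), 132 within the BeadChip shared with Ins2Akita replicate 9 (1 array against 6, chosen after seeing the data), 3438 with the replicate block and 2381 to 3481 when 1 array was left out. The cause was not tested. The 3 probes at which these differences differed became 6 with an offset of 50 and with no filter, 12 with the series matrix values, 7 with a trended prior, 1 with the random block, 5 with lens and pigment scores as covariates, and 1 to 9 when 1 array was left out (9 without wild-type replicate 4, 1 without STZ replicate 5, and 5 without Ins2Akita replicate 9, STZ replicate 1 or STZ replicate 4). The difference in detected probes, 227, was 286 at a detection p under 0.01 (285.75, exact permutation test, p = 0.0225) and 140 to 267 (266.857) when 1 array was left out, with an exact permutation p of 0.0454, 0.0413 and 0.0426 without wild-type replicate 4, wild-type replicate 7 or untreated replicate 1.

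Of 144 named genes 142 were called. Of these, 111 kept their call whichever array was left out, and 81 did so under every setting as well. Calls were lost by 30 genes with the random block, 26 with median scaling, 20 with the 16 arrays alone, 16 when the probes of a gene were averaged, 8 with the series matrix values and 6 with no filter. With the mean of probes 3 genes reversed, Gnb5 to 0.030, Car2 to 0.13 and Map1b to -0.19. The counts of respiration and ribosomal genes called lower fell by over 1.5 times without wild-type replicates 5 and 6. Dim probes near background limit what can be seen of low genes, and the offset shrinks their differences.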

Other observations

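Single genes outside the lists above also differed. Cdk1, the kinase that drives entry into mitosis, rose by 0.88 (adjusted p = 8.28e-09 in limma) and stood at 0.92 in STZ minus Ins2Akita, while it was the only one of 16 cell cycle genes called. Cpt1b, the carnitine transferase that admits fatty acids to mitochondria, rose by 0.51, but its other probe gave 0.11 (adjusted p = 0.60 in limma). Of 15 genes of fasting and fatty acid oxidation 2 rose (13.3%, near the 12.2% of all genes) and 1 fell. Of 19 genes of the endoplasmic reticulum stress response 3 fell (15.8%, against 9.45% of all genes) and 0 rose. With median scaling 6 fell and 0 rose (13.8% of all genes lower). In STZ minus Ins2Akita 6 fell and 2 rose, and the 3 genes were among those 6. Creld2, 1 of the 3, lost its call in 5 of the fits that left out 1 array.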
